A study of Mus musculus with 18 samples.

Results

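Side population (SP) and non-SP cells were compared in the 3 pairs of arrays that had a high signal of Efemp1, a gene for a secreted matrix glycoprotein, among the arrays labelled betaD5 and cRAF_cMYC. These pairs were betaD5 replicate 1 and cRAF_cMYC replicates 1 and 2, 6 of the 18 arrays and 3 of the 9 pairs in all. A pair is the SP and the non-SP array with the same line and replicate number. The members were chosen by a measured value: the Efemp1 probe set of highest mean had to exceed 9 on the log2 scale, and arrays labelled A2C12 were left out. The 6 arrays lay between 12.60 and 13.90. The 6 remaining betaD5 and cRAF_cMYC arrays lay between 3.93 and 4.68, so nothing was near the limit. The A2C12 arrays, at 13.11 to 13.34, also had a high Efemp1 signal and were kept out by their label alone.

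SP cells are defined by a dye. Cells loaded with the DNA dye Hoechst normally retain it, and cells with active ATP-binding cassette transporters, above all Abcg2, pump it out and appear as a dim side population in flow cytometry. SP fractions have been studied in many tissues and tumours because stem and progenitor cells are often found in them, and Abcg2 also exports several anticancer drugs.

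The study profiled mouse lung carcinoma lines on Affymetrix 3' expression arrays, with 3 arrays each for the SP and the non-SP fraction of A2C12, betaD5 and cRAF_cMYC. All 3 lines were isolated from lung tumours of 8-month-old mice that carried c-myc and c-raf transgenes, and they transformed spontaneously in culture, so SP and non-SP cells of every pair share this origin and both transgenes. The labels name no treatment and do not name the promoters of the transgenes. They do not say whether replicates were separate cultures, sorts or hybridizations, so p-values measure the spread between these samples, which may be technical. Each sample gave 200 ng of total RNA to the labelling reaction, and each probe set has 1 deposited log2 value per array. The medians of the non-SP arrays were 6.04 to 6.53, those of their SP partners differed by -0.039 to -0.0059, and the number of arrays limits the precision.

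The 3 pairs resembled each other more than their labels imply. Arrays of different Efemp1-high pairs correlated over genes at 0.966 to 0.983. Their correlations with the other betaD5 and cRAF_cMYC arrays were 0.885 to 0.93, and with A2C12 0.875 to 0.901. The betaD5 1 pair therefore goes against its line label. So does the cRAF_cMYC 3 pair outside the set: its non-SP array correlated at 0.988 and 0.981 with the non-SP arrays of betaD5 2 and 3, and at 0.922 and 0.899 with those of cRAF_cMYC 1 and 2. Labels are used as given, and called genes are given with and without each of these pairs. The arrays of the same pair correlated at 0.990 to 0.995.

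The tissue label was checked against lung markers. Cdh1, the epithelial cadherin, had a signal of 3.37 to 4.47 in the 6 arrays, and Sftpc, surfactant protein C of alveolar type II cells, of 5.13 to 5.90. Nkx2-1, the lung lineage transcription factor, lay at 5.64 to 6.54 and Scgb1a1, the club cell secretory protein, at 3.91 to 4.55. Of the alveolar type II list, 7 of 12 measured genes passed the filter, among them Abca3, a lipid transporter of lamellar bodies, at 9.27 to 10.18, and of the airway list 3 of 14. The 4 markers named first did not pass the filter on dim genes, which kept genes with a mean of at least 6.53 over all arrays. It kept 10916 of all 18193 genes, ranked by that mean and not by the level in these 6 arrays. Counts of list members that passed are to be read beside that share. The filter also left out some genes with a high signal in these 6 arrays, such as Cxcl5 at 9.54 to 12.37 and Ltbp2 at 8.20 to 9.38. Of the epithelial junction and keratin list, 7 of 19 measured genes passed the filter. Among them were Krt8 at 8.53 to 9.18 and Epcam at 8.55 to 9.98. The other probe set of Epcam was dim, with a mean of 5.03 over all arrays, so the Epcam level rests on 1 probe set. Of the matrix and fibroblast list, 23 of 24 measured genes passed. Of the leukocyte list, 6 of 13 measured genes passed, with Laptm5, a lysosomal protein of blood cells, at 7.71 to 8.02 and Csf1r, a macrophage receptor, at 7.23 or more, while Ptprc, the common leukocyte antigen, lay at 3.67 to 4.27. Of the endothelial list 4 of 14 passed, with Eng, a TGF-beta co-receptor, at 8.60 to 9.81, while Pecam1, an endothelial adhesion molecule, lay at 3.88 to 5.10. The mean level of the 13 measured leukocyte markers was 5.64 to 6.17 in the non-SP and 5.64 to 6.12 in the SP arrays, and that of the 14 endothelial markers 5.48 to 6.10 and 5.51 to 6.03. In the mesothelial list, 12 of 14 measured genes passed, among them Wt1 at 9.04 to 11.21 and Gpm6a at 10.00 to 12.52. Muc16 and Rspo1, which did not pass, lay at 6.14 to 8.16 and 5.13 to 5.92. The mean level of this list was 9.51 to 10.49 in the non-SP and 9.12 to 10.25 in the SP arrays.

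Between SP and non-SP cells of the 3 pairs, 2 genes rose and 1 fell. Col14a1 and Kcnk5 were higher in SP cells and Hspa1a was lower. Of 10916 genes tested, 0.0183% were called higher and 0.00916% lower (limma, paired fit of all 18 arrays, Benjamini-Hochberg adjusted p under 0.05). Before adjustment, 800 genes, 7.33%, had a p under 0.05 and a higher signal in SP cells and 487 genes, 4.46%, a lower one. The median difference over all genes was 0.0017, and the median 95% half-width of a difference was 0.228 (log2). In extracts of sorted cells, fewer cells of a type and less RNA per cell cannot be told apart.

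Col14a1 encodes collagen XIV, a collagen that sits on the surface of fibrils and occurs in stroma. Its signal in non-SP cells was 7.43 in betaD5 1, 7.19 in cRAF_cMYC 1 and 7.93 in cRAF_cMYC 2, and in SP cells 8.54, 8.37 and 8.78. Every SP array was above every non-SP array. The difference was 1.05 (SE 0.11, 95% interval 0.81 to 1.28, n = 3 pairs), or 2.06-fold, with an adjusted p of 0.0073 in limma. A second probe set of the gene gave 1.33, and another, with a mean signal of 5.01 over all arrays, gave 0.046. Without the betaD5 1 pair the difference was 1.02 and its adjusted p 0.112. Without cRAF_cMYC 1 it was 0.98 (adjusted p = 0.0416) and without cRAF_cMYC 2 1.14 (adjusted p = 0.0397). Without cRAF_cMYC 3 its adjusted p was 0.0205.

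Kcnk5 encodes an acid-sensitive background potassium channel. Its non-SP and SP signals were 8.36 and 9.05 in betaD5 1, 6.92 and 8.07 in cRAF_cMYC 1, and 8.38 and 9.10 in cRAF_cMYC 2. The fractions overlapped, because the cRAF_cMYC 1 SP array lay below the non-SP arrays of the other pairs, but SP was higher in 3 of 3 pairs. The difference was 0.85 (SE 0.11, limma adjusted p = 0.0381), or 1.81-fold. Its other probe set, dimmer with a mean of 5.36, gave 0.10. Leaving out any of the 3 pairs ended the call, with differences of 0.71 to 0.94 and adjusted p-values of 0.0651 to 0.19. The call was also lost with the mean of its probe sets (0.48, adjusted p = 0.144), with every probe set tested (0.0595), with the 6 arrays alone (0.0923) and without cRAF_cMYC 3 (0.108).

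Hspa1a encodes inducible Hsp70, a chaperone made after protein damage. Non-SP cells had 7.44, 7.65 and 7.70 in betaD5 1, cRAF_cMYC 1 and cRAF_cMYC 2, and SP cells 6.41, 6.88 and 6.13. All SP arrays were below all non-SP arrays. Hspa1a fell by 1.12 (SE 0.14, limma adjusted p = 0.0339). It was also lower in SP cells outside the set, by smaller amounts. The differences were -0.55, -0.67 and -0.17 in betaD5 2, betaD5 3 and cRAF_cMYC 3, and -0.42, -0.28 and -0.15 in the A2C12 pairs. Neither gap was called, at -0.66 (SE 0.20, limma adjusted p = 0.191) and -0.84 (SE 0.20, adjusted p = 0.682). Hspa1b, the near-identical neighbouring copy, went from 12.20, 11.82 and 12.67 to 11.64, 11.19 and 12.09, a difference of -0.59 (SE 0.08) at an adjusted p of 0.0507. Its fractions overlapped, with the SP array lower in each pair. The other probe sets of Hspa1b gave -0.68 and -0.66. Probes for such close copies can bind transcripts of either, so the share of each gene is uncertain. Without betaD5 1 the Hspa1a difference was -1.17 (adjusted p = 0.125), without cRAF_cMYC 2 it was -0.90 (adjusted p = 0.19), and without cRAF_cMYC 1 -1.30 (adjusted p = 0.0416). The call was also lost with every probe set tested (adjusted p = 0.0518), with the 6 arrays alone (0.0858) and without cRAF_cMYC 3 (0.0563).

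The promoters of the Hsp70 copies are shown because heat shock factors act on inducible Hsp70 genes through the element GAANNTTC, which is in capitals. The sequences are the 250 bases before the start site, 5′ to 3′ on the gene's strand, from RefSeq on GRCm38.p6. Hspa1a lies at chr17:34972157-34972406 and Hspa1b at chr17:34959239-34959488, both on the minus strand.
Hspa1a promoter: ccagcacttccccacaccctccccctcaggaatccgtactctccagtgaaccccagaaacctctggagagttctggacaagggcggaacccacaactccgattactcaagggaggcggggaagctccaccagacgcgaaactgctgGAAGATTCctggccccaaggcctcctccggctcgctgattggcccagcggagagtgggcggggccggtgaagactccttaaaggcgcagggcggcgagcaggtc
Hspa1b promoter: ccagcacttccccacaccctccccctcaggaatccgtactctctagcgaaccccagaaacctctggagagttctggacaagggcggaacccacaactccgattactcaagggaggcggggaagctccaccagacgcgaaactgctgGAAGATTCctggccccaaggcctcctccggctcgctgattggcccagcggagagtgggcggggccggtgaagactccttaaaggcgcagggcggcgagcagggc
The pair differed at 3 of 250 positions, an identity of 98.8%, and each held 1 match, which began 104 bases before the start. On both strands, GAANNTTC matched in 6.69% of the 32851 promoters of the table. Counted by gene, it matched in 5.81% of tested genes with an entry and in 6 of 14 cytosolic heat shock genes, or 42.9%. The entries for Stip1 and Dnajb1 had no match.

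**Figure D1:**
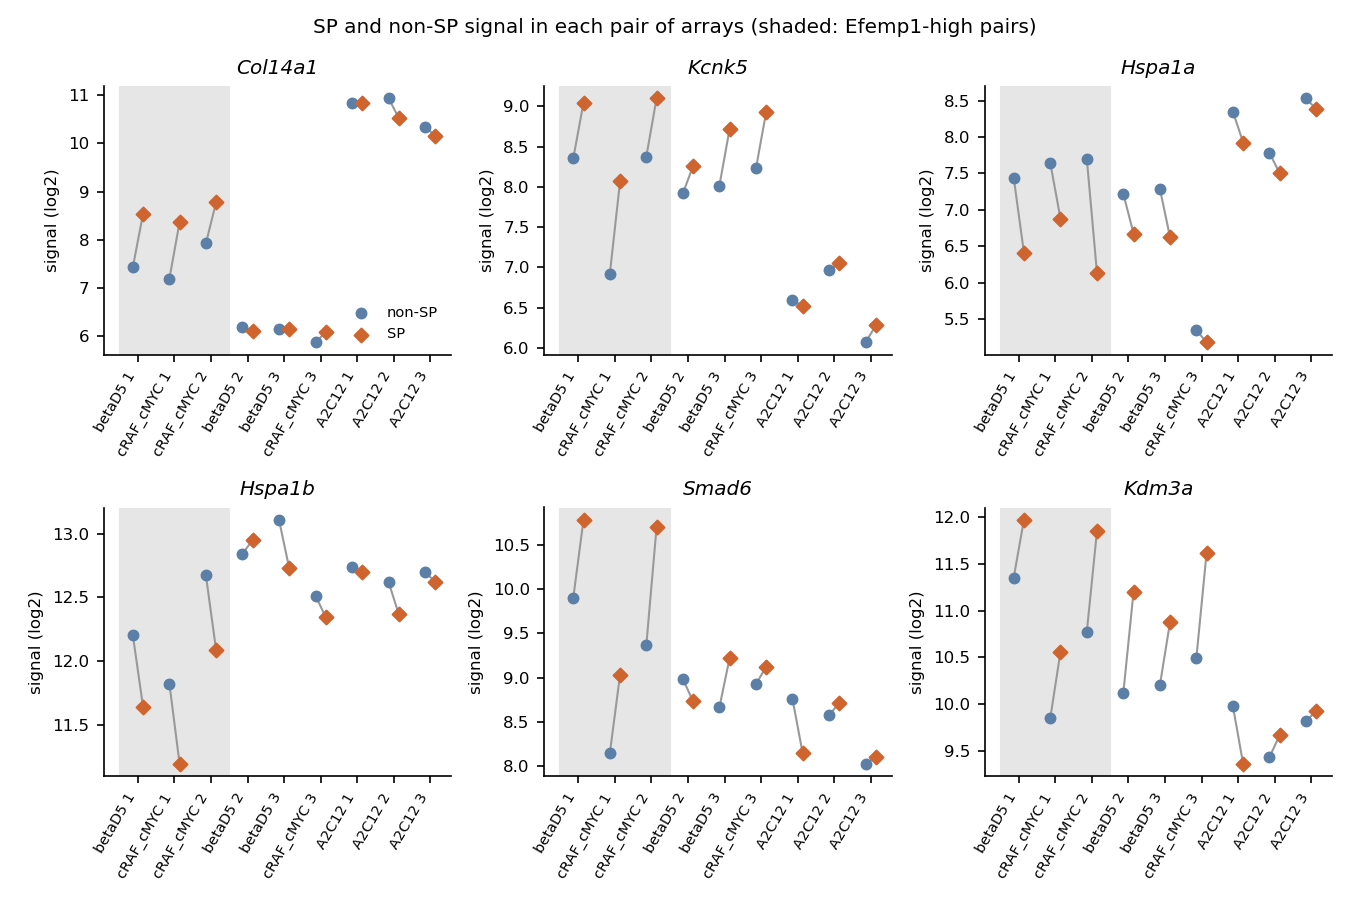
Signal (log2, vertical axis) of 6 genes in each of the 9 pairs (horizontal axis), with circles for non-SP arrays, diamonds for SP arrays and a line joining each pair, on a separate vertical scale for each gene. The shaded Efemp1-high pairs show Col14a1, Kcnk5, Smad6 and Kdm3a higher and Hspa1a and Hspa1b lower in all 3 SP arrays, by 1.05, 0.85, 1.04, 0.80, -1.12 and -0.59 on average.

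Heat shock genes as a list did not go with Hspa1a. Of 17 cytosolic chaperone and co-chaperone genes tested, 1 was called, and it was the Hspa1a decrease. The differences of 12 lay above 0, where 50.5% of all genes did, and the list median was 0.09. Stip1, a co-chaperone that links Hsp70 to Hsp90, went from 10.11 to 10.81 in betaD5 1, from 9.57 to 10.24 in cRAF_cMYC 1 and from 10.55 to 10.79 in cRAF_cMYC 2 (0.54, SE 0.10, adjusted p = 0.202). Ahsa1, an activator of Hsp90, differed by 0.31 (SE 0.09) and Dnajb1, an Hsp70 partner, by -0.27 (SE 0.11). Members of this list thus lay on both sides of 0 in the same arrays.

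Beside the test, a change of at least 0.5 in each of the 3 pairs was counted. On the side of SP cells were 7 genes, 0.0641% of those tested: Col14a1, Kcnk5, Smad6, Kdm3a, Pfkfb3, Podxl and Tmcc3. On the side of non-SP cells were 4 genes, 0.0366%: Hspa1a, Hspa1b, Btg2 and Malat1. Without any minimum size, 2134 genes, 19.5%, were higher in SP cells of all 3 pairs and 1697 genes, 15.5%, were lower. In 90 genes, 0.824%, the SP and non-SP arrays did not overlap at all.

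**Figure D2:**
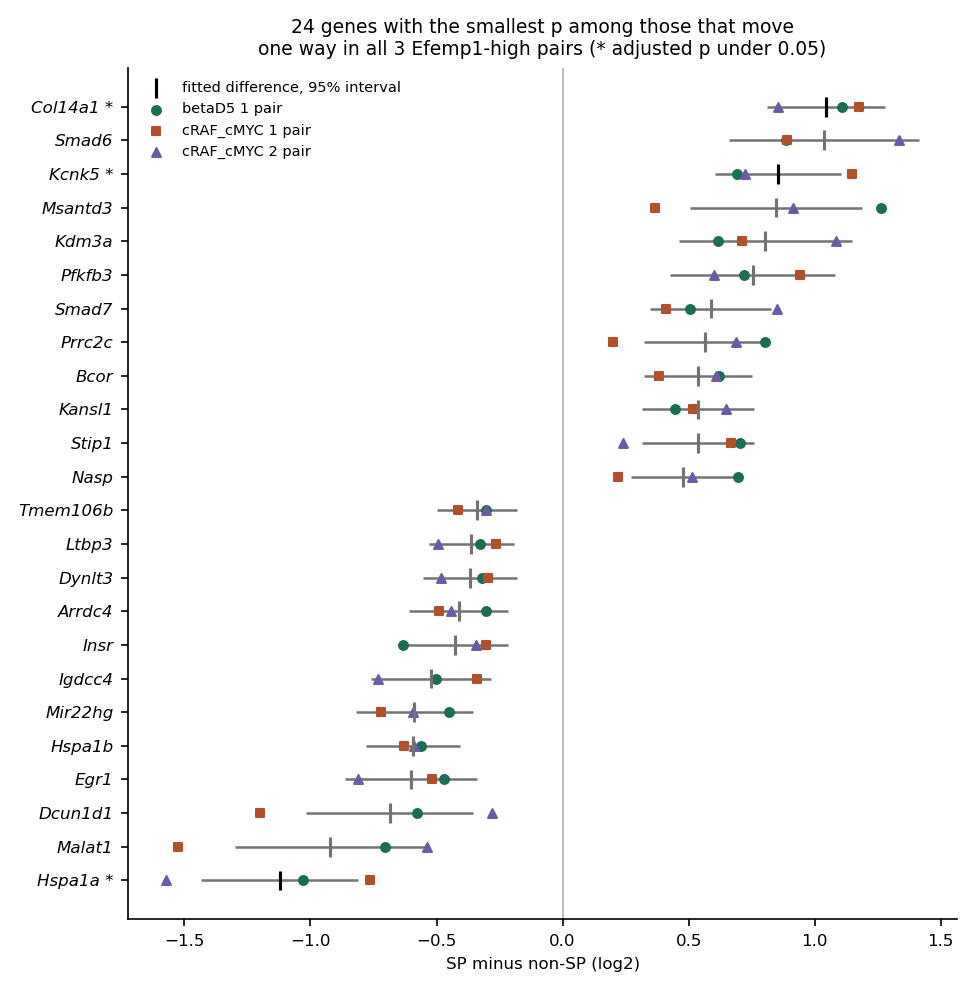
SP minus non-SP difference (log2, horizontal axis) of the 12 genes with the smallest p in each direction, with the fitted value and its 95% interval as a tick and line and the value of each pair as a symbol. Only the starred genes, Col14a1, Kcnk5 and Hspa1a, had an adjusted p under 0.05, and the cRAF_cMYC 1 pair lay farthest from the other pairs for Msantd3, Malat1 and Dcun1d1.

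Among genes of transforming growth factor beta (TGF-beta) and bone morphogenetic protein (BMP) signalling, both inhibitory Smads had higher SP values in every pair, although neither passed the test. Smad6, which mainly blocks BMP signals, had 9.91, 8.14 and 9.37 in the non-SP arrays of betaD5 1, cRAF_cMYC 1 and cRAF_cMYC 2, and 10.79, 9.03 and 10.71 in their SP arrays. Its difference was 1.04 (SE 0.17, adjusted p = 0.167). Only in the fit of the 6 arrays alone was Smad6 called (limma adjusted p = 0.0462). Smad7, the inhibitor of TGF-beta receptors, went from 10.09, 8.98 and 10.10 to 10.59, 9.40 and 10.95 (0.59, SE 0.11, adjusted p = 0.202), and its second probe set gave 0.44. Within each pair the SP array was higher, while the pairs themselves lay far apart. Of the 19 genes of this list tested, 0 were called, 13 lay above 0 and 8 were higher in all 3 pairs. The list median was 0.09. Among the ligands, Tgfb1 differed by 0.23 and Bmp4 by -0.21, and among the receptors Tgfbr1 by 0.19 and Tgfbr2 by -0.29. The Id genes, direct BMP targets, differed by 0.05 (Id1), 0.27 (Id2) and 0.29 (Id3). In limma, Ltbp3, which binds latent TGF-beta in the matrix, was -0.36 (SE 0.08, adjusted p = 0.24), and its other probe sets gave -0.84, -0.71 and -0.20.

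Hypoxia response genes are switched on by the factors Hif1a and Epas1 when oxygen is low. Of 25 tested, 19 lay above 0 and 13 were higher in SP cells of all 3 pairs, with a median of 0.14, and 0 passed the test. Kdm3a, a histone lysine demethylase and a known hypoxia target, went from 11.35 to 11.97 in betaD5 1, from 9.85 to 10.56 in cRAF_cMYC 1 and from 10.77 to 11.85 in cRAF_cMYC 2. The difference was 0.80 (SE 0.16, adjusted p = 0.203). Pfkfb3, whose product activates glycolysis, went from 9.04 to 9.76, from 7.67 to 8.61 and from 8.71 to 9.31 in the same order (0.75, SE 0.15, adjusted p = 0.203). Ddit4, an inhibitor of mTOR signalling, differed by 0.30 (SE 0.07), with 0.29, 0.34 and 0.28 in the 3 pairs. Values for Ero1a, an oxidase of disulphide formation, and Pfkfb4 were 0.36 and 0.32. Vegfa, the angiogenic growth factor, and Egln3, an oxygen-sensing hydroxylase, had 0.29 and 0.27. The other 6 lay below 0, the lowest being Lox, the lysyl oxidase, at -0.21 and Egln1, the main oxygen-sensing hydroxylase, at -0.20. Among 13 glycolysis genes tested, 9 lay above 0, with a median of 0.08, and none was called. Hk2 (0.53, SE 0.16) and Ldha (0.33, SE 0.10), enzymes at the start and the end of glycolysis, had the smallest p.

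Promoters of hypoxia list genes and of Smad6 that hold the core of the hypoxia response element, ACGTG or its reverse complement CACGT, are shown with the match in capitals, taken as above. Pfkfb3 has 2 entries, at chr2:11553930-11554179 and at chr2:11502091-11502340. Ddit4 lies at chr10:59951771-59952020, Ero1a at chr14:45318573-45318822 and Smad6 at chr9:64022060-64022309, all on the minus strand.
Pfkfb3 promoter 1: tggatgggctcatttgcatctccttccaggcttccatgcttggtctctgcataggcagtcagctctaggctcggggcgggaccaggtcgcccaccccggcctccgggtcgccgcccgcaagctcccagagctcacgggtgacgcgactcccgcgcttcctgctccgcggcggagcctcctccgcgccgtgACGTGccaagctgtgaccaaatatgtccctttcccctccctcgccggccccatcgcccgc
Pfkfb3 promoter 2: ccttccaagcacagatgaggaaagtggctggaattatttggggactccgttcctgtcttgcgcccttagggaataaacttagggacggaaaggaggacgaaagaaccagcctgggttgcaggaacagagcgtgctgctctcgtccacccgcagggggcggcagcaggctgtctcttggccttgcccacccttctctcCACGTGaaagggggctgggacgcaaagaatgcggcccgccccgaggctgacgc
Ddit4 promoter: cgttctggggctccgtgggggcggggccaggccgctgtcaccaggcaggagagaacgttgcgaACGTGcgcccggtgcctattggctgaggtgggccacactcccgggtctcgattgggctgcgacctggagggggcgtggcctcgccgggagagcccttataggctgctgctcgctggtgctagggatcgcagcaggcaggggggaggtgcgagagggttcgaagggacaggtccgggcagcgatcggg
Ero1a promoter: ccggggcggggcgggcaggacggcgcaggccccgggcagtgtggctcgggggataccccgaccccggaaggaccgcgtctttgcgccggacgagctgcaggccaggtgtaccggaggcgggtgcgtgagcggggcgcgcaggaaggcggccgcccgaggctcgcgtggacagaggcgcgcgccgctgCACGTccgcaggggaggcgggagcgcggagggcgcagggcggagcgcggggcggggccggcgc
Smad6 promoter: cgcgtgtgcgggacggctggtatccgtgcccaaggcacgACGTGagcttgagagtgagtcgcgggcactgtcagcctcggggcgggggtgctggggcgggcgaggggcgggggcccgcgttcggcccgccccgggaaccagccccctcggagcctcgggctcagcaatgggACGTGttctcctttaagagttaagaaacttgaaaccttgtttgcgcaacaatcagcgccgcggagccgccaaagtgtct
The matches began 60 bases before the start in the first Pfkfb3 promoter, 187 in Ddit4, 63 in Ero1a, and 211 and 79 in Smad6. In the other Pfkfb3 promoter a match on each strand overlapped, 53 and 52 bases before the start. ACGTG matched in 16.6% of all promoters of the table. By gene, it matched in 25.4% of tested genes with an entry and in 15 of 20 hypoxia list genes, or 75%. Of other genes named here, Egln3 and 1 of 2 Vegfa entries also held a match, and the entries for Kdm3a, Kcnk5 and Pfkfb4 and the other Vegfa entry had none in these 250 bases.

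Genes of growth lay mostly above 0 without passing the test. Ribosome biogenesis genes build ribosomal subunits in the nucleolus, and many are Myc targets. All 25 tested lay above 0, where 50.5% of all genes did, with a median of 0.22, and 18 were higher in all 3 pairs, with 0 called. Their medians in betaD5 1, cRAF_cMYC 1 and cRAF_cMYC 2 were 0.25, 0.13 and 0.23. Noc2l, a nucleolar assembly factor, went from 9.56, 8.68 and 9.66 to 9.85, 8.96 and 9.99 (0.30, SE 0.09, adjusted p = 0.312). The largest difference was that of Wdr12, another assembly factor, at 0.50, with 0.96 in betaD5 1 and 0.13 in cRAF_cMYC 1. Myc itself differed by 0.02 (SE 0.14), with signals of 10.02 to 10.63 in non-SP and 10.11 to 10.65 in SP cells. The probe sets of the 16 cytosolic ribosomal protein genes had a median of 0.0014, close to that of all genes.

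DNA replication genes gave a similar count: 25 of 27 above 0, 17 higher in all 3 pairs, a median of 0.14 and 0 called. Mcm3, a subunit of the replicative helicase, went from 11.82, 10.76 and 12.37 to 12.17, 11.30 and 12.70 (0.41, SE 0.11, adjusted p = 0.311). Pcna, the sliding clamp of DNA polymerases, differed by 0.22 (SE 0.06) and Rfc3, of the complex that loads it, by 0.42 (SE 0.16). Of 28 mitosis genes, 16 lay above 0, with a median of 0.02. Their median was -0.15 in cRAF_cMYC 2 and 0.13 in cRAF_cMYC 1, so that the pairs lay on opposite sides of 0.

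Immediate early genes respond within minutes to growth factors and stress, and they are also known to respond to cell handling. Of 24 tested, 16 lay below 0 and 9 were lower in SP cells of all 3 pairs, with a median of -0.09 and 0 called. Egr1, a zinc finger factor, had non-SP signals of 12.94, 13.12 and 12.90, against 12.47, 12.60 and 12.10 in the SP arrays. Its fractions did not overlap, and the difference was -0.60 (SE 0.12, adjusted p = 0.203). Btg2, an antiproliferative gene, had the largest value at -1.13 (SE 0.36), with -1.37, -1.16 and -0.85 in the 3 pairs. Dusp1, a phosphatase of MAP kinases in the same list, lay at 0.44 (SE 0.14) and above 0 in every pair. Fos differed by -0.39 (SE 0.24) and Jun by 0.14 (SE 0.11), so this list also had members on both sides.

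**Figure D3:**
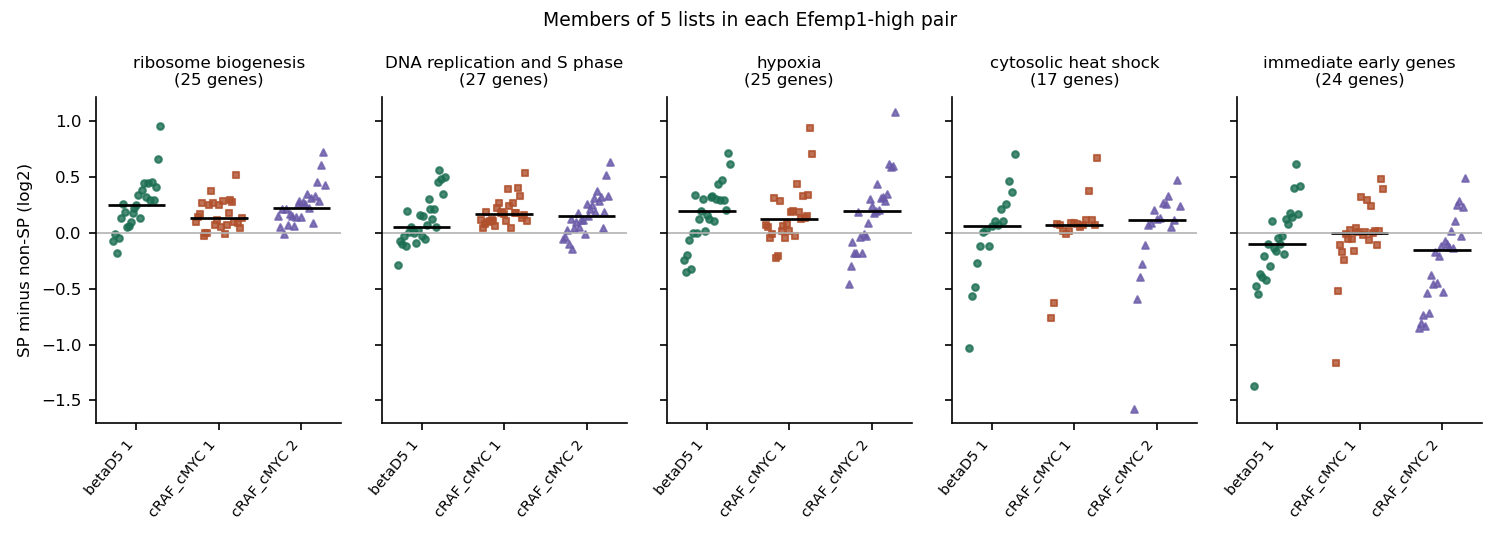
SP minus non-SP difference (log2, vertical axis) of each member of 5 lists in the betaD5 1, cRAF_cMYC 1 and cRAF_cMYC 2 pairs (horizontal axis), with a black line at the median of the list in that pair. The ribosome biogenesis medians were 0.25, 0.13 and 0.23, and Hspa1a is the lowest heat shock point in every pair.

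The transporters behind the sort were not called. Abcg2 had signals of 10.71, 10.42 and 10.78 in non-SP and 10.93, 10.54 and 11.03 in SP cells of betaD5 1, cRAF_cMYC 1 and cRAF_cMYC 2. It was higher in SP cells of 3 of 3 pairs, and the fractions overlapped. The difference was 0.19 (95% interval -0.02 to 0.41, limma adjusted p = 0.486). Abcb1a and Abcb1b, the P-glycoprotein genes, differed by -0.19 (SE 0.21) and 0.07 (SE 0.16), and Abcc1, an exporter of glutathione conjugates, by 0.06 (SE 0.07), with 0.76 from its other probe set. Of 12 transporter genes tested, 5 lay above 0 and 0 were called, with a median of -0.05.

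Antioxidant genes under the factor Nrf2 were split. Of 16 tested, 7 lay above 0, with a median of -0.03 and 0 called. Hmox1, heme oxygenase, went from 10.91 to 12.20 in betaD5 1, from 9.74 to 10.04 in cRAF_cMYC 1 and from 10.36 to 11.28 in cRAF_cMYC 2 (0.84, SE 0.29, adjusted p = 0.315). Gclc and Gclm, the subunits of the enzyme that starts glutathione synthesis, differed by 0.54 (SE 0.13) and 0.38 (SE 0.16). Nqo1, a quinone reductase, had 0.92 in betaD5 1 and -0.12 and 0.05 in the other pairs.

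Matrix and fibroblast genes as a list did not go with Col14a1. Of 23 tested, 16 lay below 0 and 7 were lower in all 3 pairs, with a median of -0.10 and 0 called. Postn, a matricellular protein of active stroma, went from 10.31 to 10.22, from 11.69 to 11.06 and from 11.46 to 10.40 in betaD5 1, cRAF_cMYC 1 and cRAF_cMYC 2 (-0.60, SE 0.15, adjusted p = 0.302). Mfap5, a microfibril protein, differed by -0.57 (SE 0.13), with -0.20 from its other probe set, and Col1a1, the main fibrillar collagen chain, by -0.25 (SE 0.09). Efemp1, on which the arrays were chosen, differed by -0.14 between SP and non-SP cells, which is given as a description. Mesothelial markers lay lower in betaD5 1 and cRAF_cMYC 2, with medians of -0.28 and -0.38, and higher in cRAF_cMYC 1, with 0.15.

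Another matrix gene, Smoc2, a secreted calcium-binding protein of the SPARC family, was left out by the filter because its signal was low in the other arrays. It was singled out after its values had been seen. In the Efemp1-high pairs it went from 7.33 to 8.44 in betaD5 1, from 7.59 to 9.09 in cRAF_cMYC 1 and from 7.28 to 8.36 in cRAF_cMYC 2, and the fractions did not overlap. In the 12 other arrays its signal lay between 3.54 and 5.90. With all genes tested, its difference was 1.23 (SE 0.13, limma adjusted p = 0.00481). The 12 other arrays enter the estimate of its spread in that fit, so its SE and p do not rest on the Efemp1-high pairs alone. That fit called 8 genes: Col14a1, Kcnk5, Hspa1a, Hspa1b, Smoc2, Mei4, Stk26 and Slc8a1.

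**Figure D4:**
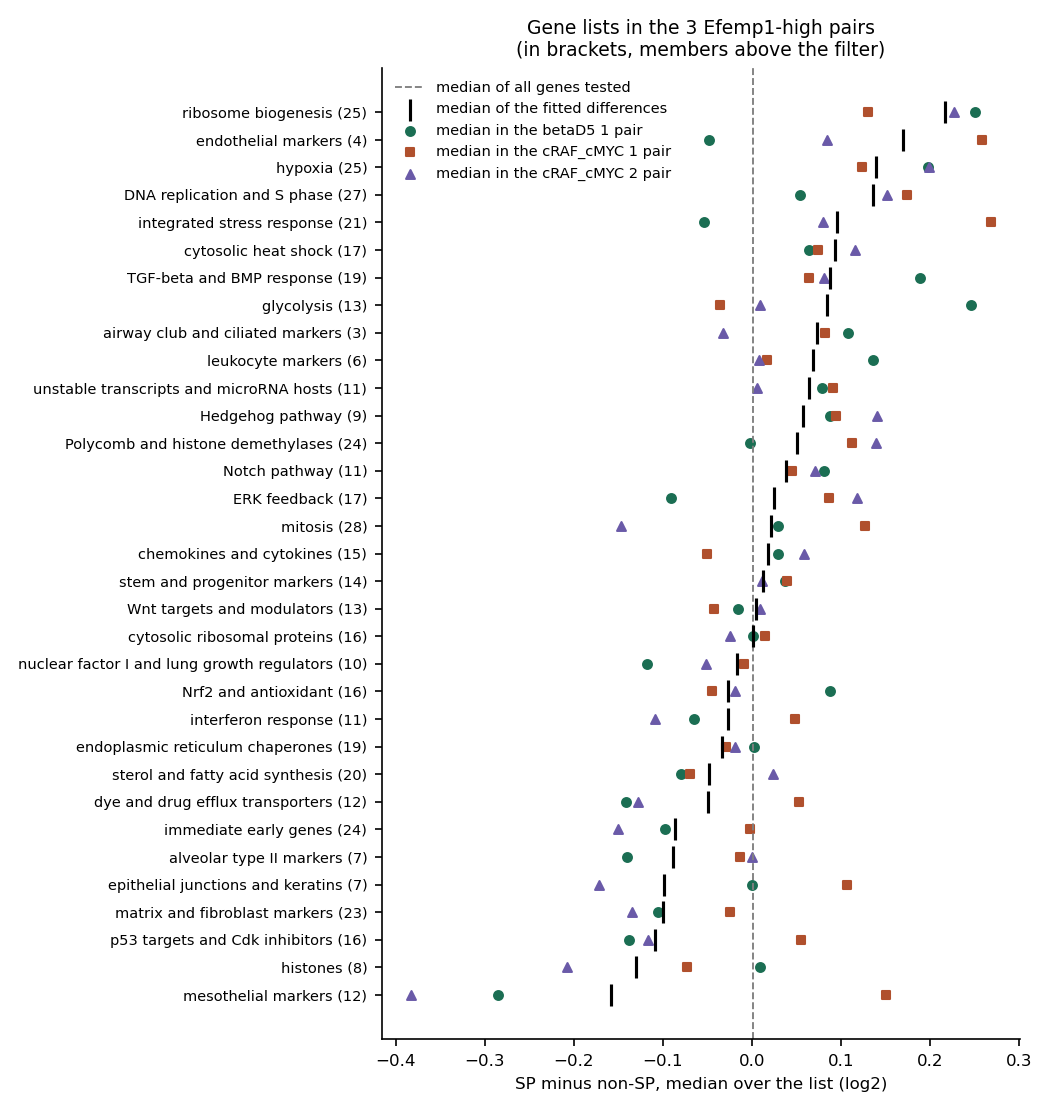
Median SP minus non-SP difference (log2, horizontal axis) of 33 gene lists (vertical axis, with the number of members tested), as a tick for the fitted differences and a symbol for each Efemp1-high pair. The dashed line is the median of all genes, 0.0017. Ribosome biogenesis lies highest at 0.22 and mesothelial markers lowest at -0.16, and the pairs lie on both sides of 0 for the mesothelial list.

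Lists of signalling and progenitor genes held 0 called members. Of 14 stem and progenitor markers tested, 8 lay above 0, with a median of 0.01. Sox9, a progenitor transcription factor, differed by 0.36 (SE 0.10) and lay between 0.32 and 0.42 in the 3 pairs. Its other probe sets gave 0.82 and, from a dim one with a mean of 4.85, 0.09. In the Notch pathway, 7 of 11 lay above 0, among them the receptor Notch1 at 0.35 (SE 0.14) and the ligand Jag1 at 0.28 (SE 0.10). The other Notch1 probe set gave 0.22, and the other Jag1 probe sets gave 0.75 and -0.03. Sfrp1, a secreted Wnt antagonist, had -0.15, -0.46 and -1.10 in betaD5 1, cRAF_cMYC 1 and cRAF_cMYC 2. Its 4 other probe sets ranged from -0.45 to 0.35, and 2 of them were above 0 in betaD5 1, at 0.30 and 1.54. ERK feedback genes were divided, with 10 of 17 above 0. Etv5, an ERK-induced factor, lay at 0.38 (SE 0.11) and Errfi1, an inhibitor of EGF receptors, at -0.42 (SE 0.12), without overlap of the fractions, although its other probe set gave 0.13. Nfix, a nuclear factor I gene, had -1.40 in betaD5 1 and -0.26 and -0.32 in the cRAF_cMYC pairs.

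Of other genes with a small p, Insr, the insulin receptor, had non-SP and SP signals of 9.22 and 8.59 in betaD5 1, 8.26 and 7.95 in cRAF_cMYC 1, and 8.79 and 8.45 in cRAF_cMYC 2. Its difference was -0.43 (SE 0.10, adjusted p = 0.297), lower in SP cells of 3 of 3 pairs. Its other probe sets gave 0.026 and -0.0098, with 0.36 and 0.29 in cRAF_cMYC 1, and the mean of all its probe sets -0.14. Mir22hg, the host transcript of a microRNA, lay between 10.33 and 10.58 in non-SP and between 9.70 and 9.99 in SP cells, without overlap (-0.59, SE 0.11, adjusted p = 0.202).

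Histone demethylases and Polycomb genes, which act on chromatin marks, had 14 of 24 values above 0 and a median of 0.05, with 0 called. Jarid2, a Polycomb partner, had 0.49, 0.21 and 1.52 in betaD5 1, cRAF_cMYC 1 and cRAF_cMYC 2 (0.74, SE 0.21, adjusted p = 0.311), and its other probe sets gave 0.58 and 1.09. Bcor, a corepressor of a Polycomb complex, differed by 0.54 (SE 0.10, adjusted p = 0.202). Gadd45a, a stress gene among p53 targets, had 0.85, 0.29 and 0.94 (0.69, SE 0.20), the highest value of its list. Of the 16 p53 targets and Cdk inhibitors tested, 12 lay below 0, with a median of -0.11 and 0 called. Trp53inp1, which had the smallest p of that list, differed by -0.33 (SE 0.09) and was lower in SP cells of all 3 pairs. Malat1, a nuclear noncoding RNA, differed by -0.92 (SE 0.17, adjusted p = 0.202), but its other probe sets ranged from -1.08 to 0.28. Nasp, a histone chaperone, at 0.48 also had probe sets on the other side of 0. For Dcun1d1, a neddylation factor, the value of -0.69 rests on 1 probe set. All its other probe sets lay above 0, from 0.13 to 0.46, and 1 of them was about as bright, with a mean of 7.81 against 7.83.

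The 3 pairs did not share 1 pattern over all genes. Across 10916 genes, the differences in betaD5 1 and cRAF_cMYC 2 correlated at 0.55. Those of cRAF_cMYC 1 correlated at 0.19 with cRAF_cMYC 2 and at 0.07 with betaD5 1, and at 0.40 with cRAF_cMYC 3, a pair outside the Efemp1-high set. Genes are not independent replicates, and the values of a pair share the same 2 arrays. The 3'/5' signal ratio of control transcripts, a measure of RNA and cDNA length, gave no single split of the pairs. In betaD5 1, cRAF_cMYC 1 and cRAF_cMYC 2, SP minus non-SP (log2) was -0.23, 0.06 and -0.56 for Gapdh, 0.033, 0.17 and -0.43 for Actb, 0.14, -0.03 and 0.13 for Tfrc, and 0.089, 0.18 and -0.37 for Pcx. With the mean ratio of Gapdh and Actb as a covariate, Col14a1 kept a difference of 1.05 (adjusted p = 0.0458), while Kcnk5 at 0.85 and Hspa1a at -1.13 had adjusted p-values of 0.175 and 0.174. Without cRAF_cMYC 1, 10 genes were called, among them Col14a1 and Hspa1a but not Kcnk5. Without betaD5 1 there were 0, and without cRAF_cMYC 2 only Col14a1 was called.

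Whether the SP difference itself differed from that in other pairs was tested next. Against the 3 other betaD5 and cRAF_cMYC pairs, betaD5 2 and 3 and cRAF_cMYC 3, 0 genes (0%) were called by limma, the smallest adjusted p was 0.174, and 1826 genes had an unadjusted p under 0.05. In betaD5 2 and 3 the 3'/5' ratio was higher in SP cells, by 0.66 and 0.93 for Gapdh and 0.88 and 0.79 for Actb, against -0.069 and -0.048 in cRAF_cMYC 3. The unadjusted count was 463 with the ratio as covariate and 672 without betaD5 2 and 3. Without cRAF_cMYC 1 the count of calls was 137. Without cRAF_cMYC 3 it was 4, made up of Cenpb (1.82), Get3 (1.63), Tpgs1 (1.24) and Gadd45b (1.17), named after their values had been seen. Col14a1 was 1.05 in the Efemp1-high pairs and 0.04 ± 0.16 (SD, n = 3 pairs) in the other pairs, a gap of 1.01 (SE 0.15, adjusted p = 0.174). Its signal there was 5.88 to 6.19, below the lowest mean that passed the filter. Upk1b, a uroplakin of urothelium and mesothelium, was -0.07 and 0.93 ± 0.099, and Hps5, a gene of lysosome-related organelles, 0.0038 and 0.80 ± 0.20. Zfp51, a zinc finger gene, was 0.13 and 0.94 ± 0.22, and Ttll7, a tubulin-modifying enzyme, -0.22 and 0.77 ± 0.32. These 5 genes had the smallest p for this difference, all with an adjusted p of 0.174. The other Ttll7 probe set, dim with a mean of 4.37, gave 0.43 in the Efemp1-high pairs, on the other side of 0. The other Upk1b probe sets gave -0.11, -0.28 and 0.17 there.

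For some genes the gap between the sets was smaller than 2 of its standard errors. Kdm3a was 0.80 in the Efemp1-high pairs and 0.96 ± 0.25 in the other betaD5 and cRAF_cMYC pairs, a gap of -0.16 (SE 0.22). Pfkfb3 was 0.75 and 0.73 ± 0.23 (gap 0.02, SE 0.21), and Malat1 -0.92 and -0.92 ± 0.22 (gap 0.0016, SE 0.24). For Kcnk5 the values were 0.85 and 0.58 ± 0.21 (gap 0.27, SE 0.16). Abcg2 differed more: it was 0.21, 0.12 and 0.25 in the Efemp1-high pairs and 0.66, 0.43 and 0.36 in the other pairs, with every other pair above every Efemp1-high pair and a gap of -0.29 (SE 0.14, adjusted p = 0.321). These adjusted p-values above the threshold do not show that the sets act alike.

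Against the A2C12 pairs, 1 gene, 0.00916%, was called, and 790 genes had an unadjusted p under 0.05. The gene was Col14a1, with a difference of 1.05 in the Efemp1-high pairs and -0.20 ± 0.20 (SD, n = 3) in A2C12, a gap of 1.24 (SE 0.15, limma adjusted p = 0.0422). In A2C12 its signal was higher throughout, from 10.33 to 10.94 in non-SP and from 10.16 to 10.83 in SP cells. Leaving out any Efemp1-high pair, or cRAF_cMYC 3, ended this call. The next smallest p-values were those of Mrtfa, an actin-regulated coactivator, with 0.33 and -0.35 ± 0.10, and of Smad7, with 0.59 and -0.20 ± 0.13, followed by Kcnk5, with 0.85 and 0.08 ± 0.14, and Smad6, with 1.04 and -0.13 ± 0.42. These 4 had an adjusted p of 0.682.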

How the data were processed

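Expression was measured on 18 Affymetrix 3' arrays. Per the submitters' processing notes, Affymetrix Expression Console was used, and the summary algorithm and normalization are not given in the sources used here. The deposited log2 signals ranged from 2.28 to 15.28 and were used unchanged.

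After removal of 64 control probe sets, 34945 carried 1 gene symbol in the platform annotation, 932 several and 9160 none, and those with several or none were not used. Names of 34741 came from the gene identifier. For each of 18193 genes, the probe set of highest mean stood for the gene. Genes in the lowest 40% by mean were dropped, which left 10916.

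Differences were fitted with limma 3.58.1 in R 4.3.3 (lmFit and eBayes with a trend) on all arrays, with 9 pair blocks and an SP effect each for the Efemp1-high pairs, the other betaD5 and cRAF_cMYC pairs and A2C12, so that all pairs share the estimate of the spread. Tests were two-sided and Benjamini-Hochberg adjusted over all genes tested. The replicate numbers of the labels pair the arrays: deviations from the fraction mean correlated at 0.61 to 0.83 within the 3 Efemp1-high pairs and at -0.71 to -0.063 between them. Deviations from a mean of 3 arrays cancel out, so positive values within pairs push those between pairs below 0. The correlations do not show what a replicate number stands for. The fit was tested on simulated data.

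Named were the 12 largest increases and decreases past the threshold that moved alike in all 3 pairs, filled by smallest p, up to 3 called members of each of 33 lists or the 2 of smallest p, the 5 genes of smallest p for each difference between sets, and Abcg2, Abcb1a, Abcb1b, Abcc1, Myc and Efemp1. Predicted genes were passed over. Some genes named by this rule, such as Edem1, Atf4 and Boc, are counted below but not described above. Other list members were chosen freely as examples. The pairs, lists and tests were chosen with earlier results of these data known. Alternatives were quantile normalization, centring, no filter or a filter at 60%, the mean of all probe sets, every probe set, no trend, robust eBayes, the 3'/5' ratio as covariate, no replicate block, the 6 arrays alone and leaving out each pair. Fits without betaD5 2 and 3 and without cRAF_cMYC 3 were chosen after seeing the data. Promoters came from a RefSeq table on GRCm38.p6, matched by symbol.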

Additional observations from a re-analysis of the deposited data

Results flagged for a closer look

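Col14a1 was picked out because the test of the difference itself passed: its SP minus non-SP difference in the Efemp1-high pairs exceeded that in the A2C12 pairs by 1.24 (log2, SE 0.15, limma adjusted p = 0.0422). The groups of 3 arrays were too small for a search for outlying samples.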

How the results depend on the processing

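The count of genes called between SP and non-SP cells, 3 in all, was 0 with no replicate block and 0 with a filter at 60%, which leaves out Col14a1, Kcnk5 and Hspa1a. It was 1, Col14a1, with the 3'/5' ratio as covariate and without cRAF_cMYC 3, 6 without betaD5 2 and 3 and 8 with no filter. With the 6 arrays alone it was 5: Col14a1, Smad6 and Tmcc3 higher and Btg2 and Hspa1b lower. Of the 3, that fit called Col14a1 only. Leaving out a pair gave 0 to 10. At an unadjusted p under 0.05 the 1287 genes became 45 with no replicate block and 2591 with every probe set, and 539 to 1634 without a pair. Against the other betaD5 and cRAF_cMYC pairs, 1 gene was called with no filter (Smoc2), 1 with the mean of all probe sets (Col14a1), 4 without cRAF_cMYC 3, and 0 to 137 without a pair. Smoc2 lay at only 4.28 to 5.90 in the arrays of those other pairs, where a change could hardly be seen. Its call therefore does not show an SP difference particular to the Efemp1-high pairs. The 1826 genes at an unadjusted p under 0.05 became 97 with no replicate block, 2840 with no filter, 1192 with a filter at 60%, 3524 with every probe set, 463 with the 3'/5' ratio and 672 without betaD5 2 and 3, and 976 to 2237 without a pair. Against A2C12, the 1 call became 0 with no replicate block, the filter at 60%, the mean of all probe sets, every probe set, the 3'/5' ratio, without betaD5 2 and 3, without cRAF_cMYC 3 and without any Efemp1-high pair. The 790 unadjusted genes became 14 with no replicate block, 1192 with no filter, 1494 with every probe set, 508 with the 3'/5' ratio, and 409 to 1110 without a pair. The other alternatives kept these counts within 1.5 times, but with every probe set tested Kcnk5 and Hspa1a, and with the mean of all probe sets Kcnk5, were not called. Fewer pairs and fewer genes tested follow from the settings themselves, and the cause of the other shifts was not tested.

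Of 1397 values of named genes under alternatives, 1358 kept their direction and side of the threshold, 18 lost and 10 gained it, and 11 reversed. With the mean of all probe sets Nasp was -0.066, Dcun1d1 0.13 and Abcb1b -0.011. The rest reversed without a pair: over the 3 pairs left out in turn, Tppp3 ranged from -0.022 to 0.13, Abcb1a from -0.42 to 0.021, Abcb1b from -0.11 to 0.18, Abcc1 from -0.016 to 0.10, Myc from -0.0083 to 0.055, Upk1b from -0.22 to 0.097 and Hps5 from -0.037 to 0.062. Of 231 list medians under alternatives, 212 moved by less than the spread between pairs. Dim signals limit the reading of genes near the filter, such as Col14a1 in the betaD5 and cRAF_cMYC arrays with low Efemp1.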

Other observations

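Among genes outside the filter, 3 more were called in the Efemp1-high pairs when all genes were tested. They were chosen after their values had been seen. Stk26, a kinase of the Ste20 family, went from 4.86, 4.79 and 4.88 in non-SP to 6.01, 6.23 and 5.40 in SP cells of betaD5 1, cRAF_cMYC 1 and cRAF_cMYC 2 (1.03, SE 0.14, limma adjusted p = 0.0269). In betaD5 2, betaD5 3 and cRAF_cMYC 3 it went from 4.86, 5.47 and 6.01 to 7.26, 7.49 and 8.27. Slc8a1, a sodium and calcium exchanger, went from 7.20 to 6.73 in betaD5 1 and from 6.77 to 5.94 in cRAF_cMYC 1 and was also lower in SP cells of cRAF_cMYC 2 (-0.66, SE 0.09, adjusted p = 0.0279). Its signal was 3.08 to 4.48 in the 12 other arrays. Mei4, a gene of meiotic recombination, went from 5.21, 3.01 and 5.28 to 5.82, 3.90 and 6.39 (0.87, SE 0.10, adjusted p = 0.00515). Its signal was 2.60 to 3.54 in the 12 other arrays, near the lowest deposited values. Those arrays enter the estimate of the spread of all 3 genes, so their SE and p do not rest on the Efemp1-high pairs alone.

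Without cRAF_cMYC 1, the genes called in betaD5 1 and cRAF_cMYC 2 beside Col14a1 and Hspa1a were G6pc3 (0.93), Grpel2 (0.80), Msantd3 (1.09) and Prrc2c (0.74) above 0 and Adamts5 (-0.79), Adgrg2 (-0.87), Pard6b (-0.93) and Sulf2 (-0.60) below it, each with a limma adjusted p of 0.0416. The Prrc2c value rests on 1 of several probe sets, and another gave -0.82 in betaD5 1 and 0.61 in cRAF_cMYC 2.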
